A study of Mus musculus with 12 samples.

Results

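Among the intervals measured as back-splice junctions in mouse hippocampus, 9 host genes carried a junction that was near absent in one genotype: Uap1, Cdkal1, Tgfbr3, Pip4k2b, Hunk, Scyl3, Creb1, Mga and Dbnl. The members are these 9 genes of 24318 in the gene table, with all 24 junctions that the junction table assigns to them, of 7025 listed. In each host the near-absent junction was taken as the one with the smallest ratio of the lower to the higher group mean, with 0.1 added to each. Near absent means at most 3 reads over the 3 libraries of a genotype. All 9 meet it, 5 in WT and 4 in 5xFAD. The members were chosen by their junction signal in the 2 genotypes, so these values are given as a description with no test. The gene table, which the choice did not use, is tested.

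Hippocampal RNA of 5xFAD mice and of wild-type (WT) mice, both aged 7 months, was measured in 12 samples, 3 in each of 4 groups. 5xFAD mice carry transgenes with familial Alzheimer's mutations, human APP among them, expressed in neurons under Thy1 regulatory sequence; WT mice are the comparison. The title prefixes AT and CG, which the labels do not spell out, mark 2 library types, each with both genotypes. The design text names an rRNA-depleted RNA-seq and a second protocol that combines A-tailing with RNase R. This nuclease digests RNA that has a free end and so enriches circles. No label says whether the samples came from separate animals, so the p-values measure sample-to-sample spread alone, and this may be technical.

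A circular RNA forms when the splicing machinery joins the end of an exon back to the start of the same or an earlier exon. The join, the back-splice junction, is absent from the linear transcript of the gene, and it identifies the circle. A gene can give several circles, which compete with each other and with linear splicing for the same splice sites. Brain is rich in circular RNA, and many circles come from neuronal genes.

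The AT libraries held 191408, 683540 and 659414 junction reads in 5xFAD, against 438790, 695539 and 695528 in WT, recovered from the deposited signal (reads scaled by library). One read was worth a signal of 0.866, 0.226 and 0.239 in the 5xFAD libraries, against 0.374, 0.228 and 0.234 in the WT libraries, so 5xFAD replicate 1 is the coarsest. A genotype with 0 reads could still hold a pooled signal of up to 0.307 in 5xFAD or 0.265 in WT, the limit that 3 reads set. The table lists junctions that reach a signal of at least 2.03 in all 3 libraries of at least 1 genotype. A junction near 0 in one genotype is therefore listed only through the other and had to differ. The CG libraries held 17563, 17609 and 17679 genes above 0 in 5xFAD, against 17557, 17221 and 17527 in WT. Thy1 stood at 1136 and 1172 FPKM in the libraries labelled 5xFAD replicates 1 and 2 and at 305 in the library labelled 5xFAD replicate 3, against 296, 308 and 340 in WT. The library labelled 5xFAD replicate 3 therefore goes against its label, and each gene result is given with and without it. The AT table holds no gene levels with which to check its labels in the same way.

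Of the 7025 listed junctions, 25 were near absent in either genotype (0.356%), 15 in WT (0.214%) and 10 in 5xFAD (0.142%). The 9 junctions of the members are part of these 25, and 16 near-absent junctions belong to other hosts. Where they were present, the 9 were weak: their group means ran from 2.50 to 6.45 in signal, against a median of 9.81 for the higher group mean of all listed junctions. By that mean they stood at percentiles from 0.30 (Dbnl) to 29.6 (Uap1). Up to that highest mean of 6.45 the table lists 2081 junctions, and all 25 near-absent ones lie among them (1.20%). By limma on log2(signal + 1), 0 of 7025 junctions passed an adjusted p under 0.05 (0%), with 399 at an unadjusted p under 0.05. The quasi-likelihood test of edgeR on the recovered reads called 0, with 202 at an unadjusted p under 0.05, and DESeq2 called 1, with 235. The 1 junction that DESeq2 called is that of Uap1, which was chosen for its difference in this contrast, so nothing is read from the call. In the authors' deposited table the adjusted p was under 0.05 for 9 of 9 near-absent junctions, beside 264 of all listed junctions (3.76%). That p comes from the contrast that chose the members, and nothing is read from it.

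**Figure D1:**
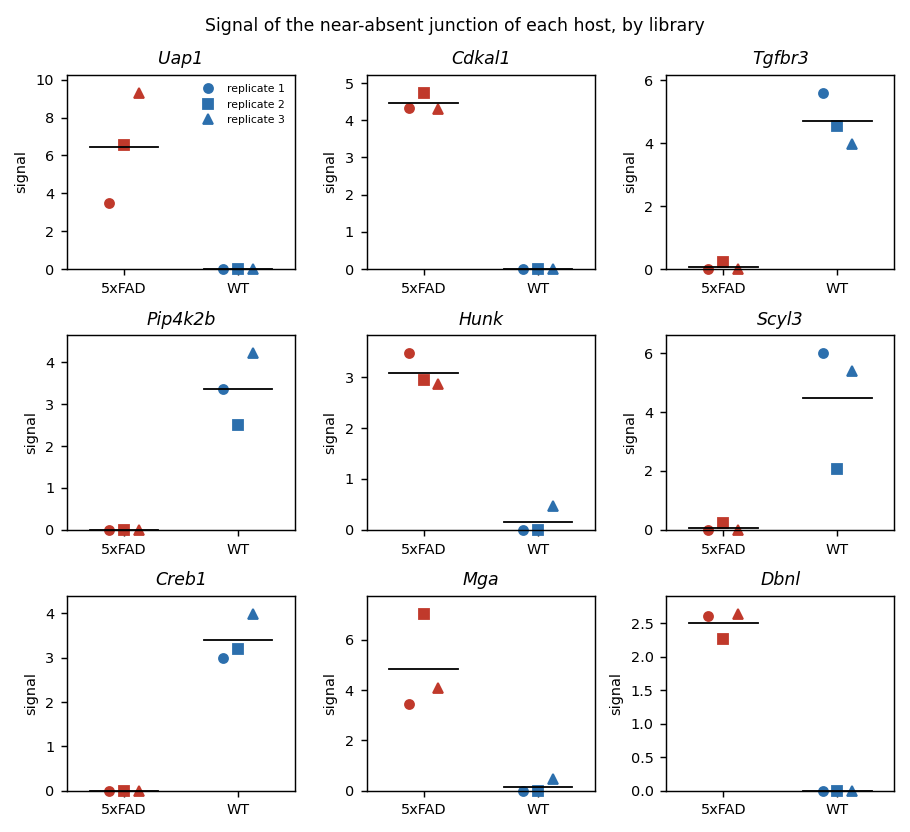
Signal (deposited, scaled reads) of the near-absent junction of each host in the AT libraries, with 5xFAD left of WT; points are single libraries, marker shapes are replicate numbers, and lines are group means (n = 3). The junctions of Uap1, Cdkal1, Hunk, Mga and Dbnl lie at or near 0 in WT, and those of Tgfbr3, Pip4k2b, Scyl3 and Creb1 lie at or near 0 in 5xFAD.

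Enzymes of sugar metabolism and RNA modification come first. Uap1 makes UDP-N-acetylglucosamine, the sugar donor for glycosylation and for O-GlcNAc on intracellular proteins. Its single listed junction, at chr1:172079401-172097079 (mm9, positions as the file gives them), had a signal of 3.46, 6.55 and 9.32 in 5xFAD, against 0, 0 and 0 in WT. Behind these values stood 4, 29 and 39 reads in 5xFAD and 0 in each WT library, the largest read number among the 9 in the genotype where the junction was present. All 5xFAD libraries lay above all WT libraries, and the 5xFAD values differed widely among themselves. Pooled over libraries, the signal was at least 27.9-fold higher in 5xFAD than the limit of 3 reads in WT. Cdkal1 adds a methylthio group to a lysine transfer RNA, and its locus is associated with type 2 diabetes in human. Its junction at chr13:29717489-29809686 had a signal of 4.33, 4.75 and 4.30 in 5xFAD, against 0 in each of the WT libraries. The 5xFAD values of Cdkal1 were close together, with a mean of 4.46 ± 0.248 (SD, n = 3), from 5, 21 and 18 reads. Its pooled signal was at least 17.0-fold higher in 5xFAD.

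Receptor and kinase hosts come next, a grouping made only to order the text. Of these 4, 3 had their near-absent junction low in 5xFAD, beside 4 of the 9 members and 10 of all 25 near-absent junctions. Nothing is read from so small a count. Tgfbr3, or betaglycan, is a co-receptor that presents TGF-beta ligands and binds inhibin. Its single listed junction at chr5:107566548-107578977 had a signal of 0, 0.226 and 0 in 5xFAD, against 5.61, 4.56 and 3.98 in WT. The whole 5xFAD signal was 1 read, in replicate 2, against 52 reads in WT, a 44.8-fold lower pooled signal in 5xFAD with a 95% exact counting interval of 7.69 to 1803. Pip4k2b phosphorylates the lipid phosphatidylinositol 5-phosphate. Its junction at chr11:97583675-97594069 had a signal of 0 in each 5xFAD library, against 3.37, 2.51 and 4.21 in WT. With 0 reads in 5xFAD and 38 in WT, the pooled signal was at least 10.9-fold lower in 5xFAD.

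Scyl3 encodes a pseudokinase that binds ezrin. Its junction at chr1:165863609-165866662 had a signal of 0, 0.226 and 0 in 5xFAD, against 5.99, 2.05 and 5.38 in WT. The lowest WT library, replicate 2, sat just above the listing limit with 9 reads, and 5xFAD held 1 read in all. The pooled signal was 41.3-fold lower in 5xFAD (95% exact counting interval 7.07 to 1667). Hunk, a kinase of the SNF1-related family, ran the other way. Its junction at chr16:90464385-90488151 had a signal of 3.46, 2.94 and 2.87 in 5xFAD, against 0, 0 and 0.468 in WT. The 2 WT reads were both in replicate 3, and the pooled signal was 16.8-fold higher in 5xFAD (95% exact counting interval 4.26 to 146).

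Transcription factors and an actin adaptor complete the set. Creb1 is the transcription factor that cyclic AMP and calcium signals activate, and it is known for its role in memory. Its junction at chr1:64612790-64620829 had a signal of 0 in each 5xFAD library, against 2.99, 3.19 and 3.98 in WT. With 0 reads in 5xFAD and 39 in WT, the pooled signal was at least 11.2-fold lower in 5xFAD. Mga is a MAX partner and a scaffold of a Polycomb complex that represses germline genes. Its junction at chr2:119747101-119747578, the shortest of the 9 with 477 bases between the ends, had a signal of 3.46, 7.00 and 4.06 in 5xFAD, against 0, 0 and 0.468 in WT. The 2 WT reads of Mga were in replicate 3, as for Hunk, and the pooled signal was 30.2-fold higher in 5xFAD (95% exact counting interval 7.95 to 256). Dbnl binds actin filaments and couples them to endocytosis. Its single listed junction at chr11:5691794-5694314 had a signal of 2.60, 2.26 and 2.63 in 5xFAD, against 0 in each WT library. It was the weakest of the 9, with 3, 10 and 11 reads in the 5xFAD libraries and a pooled signal at least 9.29-fold higher in 5xFAD. The intervals and limits of these 9 junctions cover counting error only. They make no allowance for the choice of the junctions by these same reads, so they are not tests and nothing is read from them beyond the counts.

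The 16 near-absent junctions of other hosts bound the set. By the same ratio, the 9 junctions held ranks from 1 (Uap1) to 24 (Hunk) of the 7025. Next inside Hunk was a junction of Adgra1, with mean signals of 0.235 in 5xFAD and 4.19 in WT, and next outside was a junction of St7l, with 5.81 in 5xFAD and 0.380 in WT. Among the most similar junctions of other hosts that were low in WT were those of Tfcp2, Wdfy3, Fxr2 and Fig4. Their mean signals were 5.17, 2.88, 2.49 and 3.75 in 5xFAD, against 0, 0, 0 and 0.0780 in WT. The 5 that were low in 5xFAD belonged to Dmd, Pak3, Smg6, Gigyf2 and Ncln, at 0.0753, 0.151, 0.0797, 0.452 and 0.306 in 5xFAD, against 4.69, 5.28, 2.72, 7.76 and 5.11 in WT. The last pair held 6 and 4 reads in 5xFAD and so lie outside the limit of 3 reads. Fig4, a phosphoinositide phosphatase, is also in the phosphoinositide list around Pip4k2b.

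**Figure D2:**
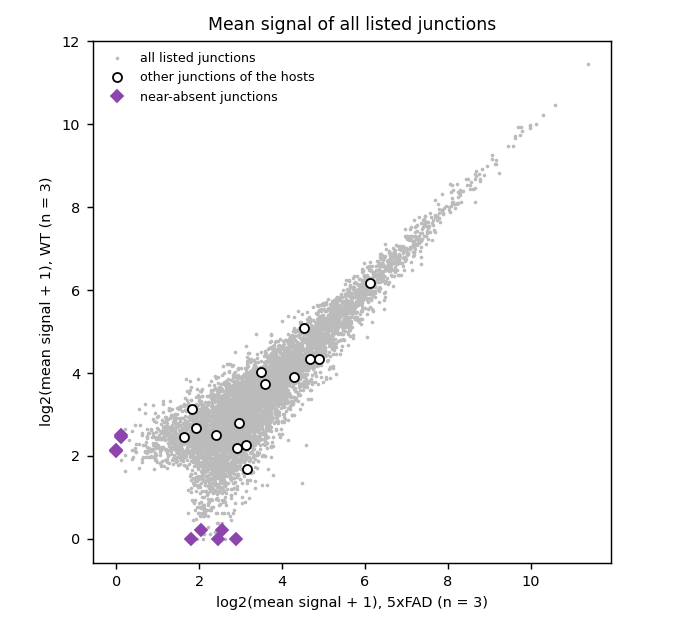
Mean signal of each of the 7025 listed junctions on a log2(mean signal + 1) scale, 5xFAD on the horizontal axis and WT on the vertical axis (n = 3 each); diamonds are the 9 near-absent junctions and open circles the 15 other junctions of the same hosts. The diamonds lie at the 2 axes, while the open circles run within the body of the cloud.

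The comparison the hosts allow is between a near-absent junction and the other junctions of the same gene. Of the 9 hosts, 6 had other listed junctions, 15 in all: 4 in Cdkal1, 4 in Hunk, 3 in Creb1, 2 in Mga and 1 each in Pip4k2b and Scyl3. The other 3 hosts, Uap1, Tgfbr3 and Dbnl, had none. Not 1 of the 15 was near absent, beside 0.356% of all listed junctions. The fewest reads in a genotype were 22, and group means ran from 2.12 to 70.7. In 0 of 15 did the genotypes stand clear of each other, beside 11.1% of all listed junctions (4.43% higher and 6.65% lower in 5xFAD). Their log2 differences (5xFAD minus WT, on log2(signal + 1)) ran from -1.25 to 1.15 with a median of 0.33, beside a median of -0.06 over all listed junctions, and 8 were positive and 7 negative. By size, 3 of the 15 passed 2-fold, 1 higher and 2 lower in 5xFAD, beside 7.89% higher and 8.01% lower over all listed junctions. The near-absent junctions differed by 1.80 to 2.81 in absolute log2 value on the same scale. Each was taken as the most extreme junction of its host by the ratio of group means. By that ratio the others had to differ less, so nothing is read from the contrast. In the authors' deposited table the smallest adjusted p among the 15 was 0.62. The median of the 15 turned to -0.10 without 5xFAD replicate 1, the shallowest library, and to -0.03 without WT replicate 3.

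**Figure D3:**
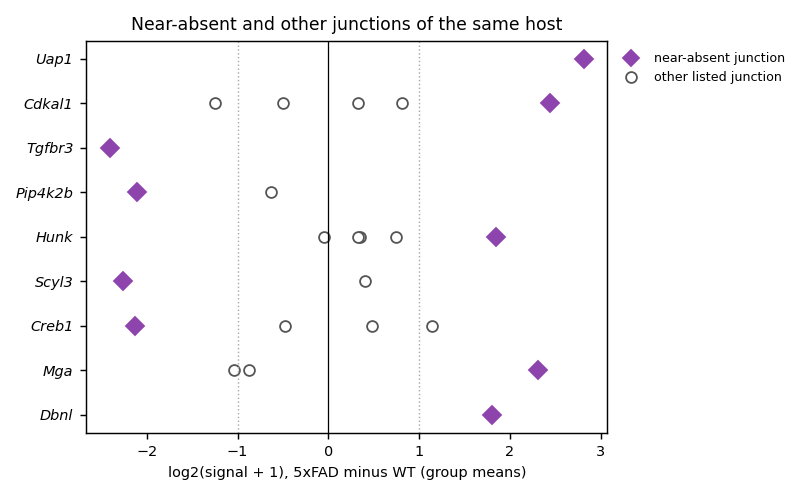
Difference between group means of log2(signal + 1), 5xFAD minus WT (n = 3 each), for the near-absent junction (diamond) and the other listed junctions (open circles) of each host; dotted lines mark 2-fold. The other junctions lie between -1.25 and 1.15, and every diamond lies beyond 1.80 in size. Each diamond was chosen as the most extreme junction of its host by the ratio of group means.

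Of the hosts with several junctions, Hunk gave the most signal. Its main junction, chr16:90464385-90476227, had a signal of 85.8, 67.1 and 53.8 in 5xFAD, against 56.5, 84.3 and 71.3 in WT. The genotypes overlapped there, and the near-absent junction of Hunk made up 2.94% ± 0.448 of the listed Hunk signal in 5xFAD, against 0.156% ± 0.271 in WT (SD, n = 3 each). The sum of the 4 other Hunk junctions was 104 ± 25.7 in 5xFAD, against 98.3 ± 7.70 in WT (SD, n = 3 each). Thus the near-absent junction of Hunk, which was chosen for its difference, was a small share of the listed Hunk signal in both genotypes. In Cdkal1 the near-absent junction held 11.8% ± 4.82 of the listed signal in 5xFAD, against 0% in WT (SD, n = 3 each). The 4 other Cdkal1 junctions summed to 38.7 ± 19.3 in 5xFAD, against 37.7 ± 7.94 in WT (SD, n = 3 each), a difference smaller than either spread.

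Creb1 and Pip4k2b lacked their near-absent junction in 5xFAD and kept others. For Creb1 it held 9.41%, 9.21% and 8.85% of the listed signal in the WT libraries and 0% in 5xFAD. The WT shares rest on 8, 14 and 17 reads of that junction. The strongest Creb1 junction, chr1:64597422-64616850, had a signal of 35.5, 33.7 and 16.5 in 5xFAD, against 19.5, 17.8 and 20.3 in WT, so that 5xFAD replicate 3 was the lowest of the 6 libraries and the other 5xFAD libraries were the highest. The sum of the 3 other Creb1 junctions was 47.5 ± 13.9 in 5xFAD, against 33.7 ± 6.37 in WT (SD, n = 3 each). The other Pip4k2b junction, chr11:97588018-97594069, had a signal of 39.0, 19.2 and 8.13 in 5xFAD, against 58.8, 21.0 and 19.9 in WT. The 5xFAD and WT ranges overlapped, and replicate 1 was the highest library in each genotype. The near-absent junction was 11.2% ± 6.04 of the Pip4k2b signal in WT (SD, n = 3), and 0% in 5xFAD.

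In Mga and Scyl3 the near-absent junction took a large part of the listed signal where it was present. For Mga it held 44.4%, 45.6% and 54.8% in 5xFAD, against 0%, 0% and 4.35% in WT. The 2 other Mga junctions summed to 4.33, 8.36 and 3.35 in 5xFAD, against 21.3, 7.75 and 10.3 in WT, so the ranges overlapped only between 5xFAD replicate 2 and WT replicate 2. The Mga junction chr2:119776821-119784099 reached 16.8 in WT replicate 1 and was at most 4.68 in the other 5 libraries. For Scyl3 the near-absent junction held 0%, 5.00% and 0% in 5xFAD, against 32.7%, 47.4% and 62.2% in WT. The other Scyl3 junction, chr1:165863609-165864948, had a signal of 8.66, 4.29 and 7.41 in 5xFAD, against 12.3, 2.28 and 3.27 in WT, overlapping ranges.

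Back-splice ends were shared in each of the 6 hosts with several junctions: the near-absent junction had 1 end in common with another junction of its host and 1 end of its own. The choice of members did not use positions. Over all hosts with several listed junctions, 3754 of 5238 junctions share an end (71.7%), and 7 of 12 near-absent junctions of such other hosts do. The unshared ends lay from 1.71 kb (Scyl3) to 66.0 kb (Cdkal1) apart, so no near-absent junction was a copy of its partner shifted by a few bases. Of the 7 partners at a shared end, 5 differed between genotypes in the opposite direction to the near-absent junction, 1 partner in each of Cdkal1, Creb1, Mga, Hunk and Scyl3. The sizes of these 5 differences, on log2(signal + 1), were -0.50 for Cdkal1, 1.15 for Creb1, -1.04 for Mga, -0.04 for Hunk and 0.40 for Scyl3, none of them with genotypes standing clear of each other. The Pip4k2b partner (-0.63) and the other Hunk partner (0.33) went the same way as the near-absent junction. The share of opposite directions over all pairs that share an end was not computed, so nothing is read from this count. Spans between the 2 ends ran from 0.477 kb to 92.2 kb among the 9, with a median of 10.4 kb, against 9.52 kb over all listed junctions.

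The same values can be given as the share that the near-absent junction took of the signal at the end it shares. A shift between partners was not tested. At its shared end in Creb1 it took 0% in each 5xFAD library, against 50.0%, 70.0% and 63.0% in WT. These WT shares rest on few reads: 8, 14 and 17 on the near-absent junction, beside 8, 6 and 10 on its partner. At the shared end in Mga it took 80.0%, 52.5% and 77.3% in 5xFAD, against 0%, 0% and 7.69% in WT. The 5xFAD reads were 4, 31 and 17 on the near-absent junction of Mga, beside 1, 28 and 5 on its partner. At the shared end in Cdkal1 it took 26.3%, 25.6% and 46.2% in 5xFAD, against 0% in WT. There the 5xFAD reads were 5, 21 and 18, beside 14, 61 and 21 on the partner. At the shared end in Scyl3 it took 0%, 5.00% and 0% in 5xFAD, against 32.7%, 47.4% and 62.2% in WT. In Pip4k2b it took 0% in each 5xFAD library, against 5.42%, 10.7% and 17.5% in WT. In Hunk it took 2.80%, 3.20% and 3.87% in 5xFAD, against 0%, 0% and 0.490% in WT. The listing limit and the choice of these junctions fixed a low share in one genotype, so nothing is read from these shares. The total at the shared end was 7.82 ± 7.52 in 5xFAD, against 5.62 ± 0.935 in WT, for Creb1, and 7.64 ± 4.95 in 5xFAD, against 5.57 ± 0.940 in WT, for Mga (SD, n = 3 each). Both differences were smaller than the 5xFAD spread and larger than the WT spread, and the genotypes overlapped. For Cdkal1 the total was 14.8 ± 4.83 in 5xFAD, against 15.4 ± 8.96 in WT (SD, n = 3 each), a difference smaller than either spread.

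**Figure D4:**
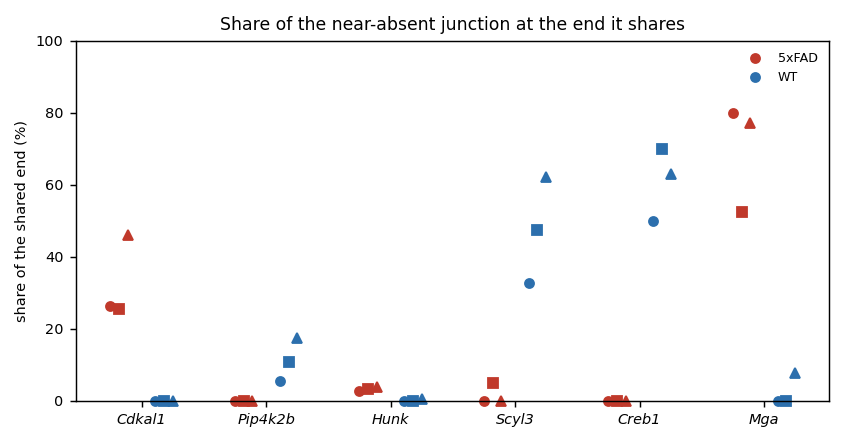
Share of the near-absent junction in the summed signal of all listed junctions that use its shared end, in percent, for the 6 hosts with such an end; points are single AT libraries (marker shapes are replicate numbers), 5xFAD left of WT. The share lies between 25.6% and 80.0% in the 5xFAD libraries for Cdkal1 and Mga and between 32.7% and 70.0% in the WT libraries for Scyl3 and Creb1, and it does not exceed 17.5% for Pip4k2b or 3.87% for Hunk.

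The host genes themselves were compared in the CG libraries, by limma on log2(FPKM + 1) with Benjamini-Hochberg adjustment over all genes tested. None of the 9 passed: 0 of 9 were called over the 6 libraries, beside 0.0069% of the 14500 genes tested, and 0 of 9 without the library labelled 5xFAD replicate 3, beside 1.2% of 14527 genes (1.18% higher and 0.0138% lower). The host differences had unadjusted p-values from 0.367 (Tgfbr3) to 0.982 (Pip4k2b) in the limma fit of 6 libraries and from 0.372 (Tgfbr3) to 1.00 (Scyl3) in that of 5, so 0 of 9 were under 0.05 before adjustment in either. In every host the FPKM ranges of the genotypes overlapped. Since these are tissue samples, a change in the number of cells of a type cannot be told apart from a change of RNA per cell. A level in FPKM counts reads over the whole gene, and it does not measure a single junction or circle.

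The hosts with a junction low in WT are given first. Uap1 stood at 14.2, 15.4 and 15.4 FPKM in 5xFAD, against 14.3, 15.0 and 14.1 in WT, a log2 difference of 0.05 (SE 0.086, 95% interval -0.15 to 0.25). Mga stood at 13.1, 15.0 and 15.0 FPKM in 5xFAD, against 13.9, 16.2 and 15.5 in WT (log2 difference -0.08, SE 0.10). Dbnl stood at 24.2, 21.5 and 21.3 FPKM in 5xFAD, against 21.2, 21.7 and 25.7 in WT (log2 difference -0.03, SE 0.11). The highest library was a 5xFAD one for Uap1 and a WT one for Mga and Dbnl. Cdkal1 stood at 14.1, 12.97 and 10.4 FPKM in 5xFAD, against 14.9, 11.6 and 13.1 in WT (log2 difference -0.08, SE 0.14), with its lowest value in the library labelled 5xFAD replicate 3. Hunk stood at 10.9, 13.1 and 10.9 FPKM in 5xFAD, against 10.4, 13.2 and 10.5 in WT (log2 difference 0.03, SE 0.13). Replicate 2 was the highest library of Hunk in both genotypes.

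The hosts with a junction low in 5xFAD also had overlapping levels. Creb1 stood at 7.72, 12.8 and 13.2 FPKM in 5xFAD, against 8.03, 15.2 and 12.9 in WT. Replicate 1 was low in both genotypes, which left Creb1 with the widest interval of the 9, a log2 difference of -0.08 (SE 0.26, 95% interval -0.68 to 0.51). Tgfbr3 stood at 6.84, 5.49 and 6.53 FPKM in 5xFAD, against 8.49, 6.57 and 6.06 in WT, a log2 difference of -0.14 (SE 0.14, 95% interval -0.46 to 0.19), the largest in size of the 9. Its highest library, WT replicate 1, also held the most choroid plexus RNA: the 8 choroid plexus markers summed to 60.5, 77.8 and 504 FPKM in 5xFAD, against 2899, 46.8 and 69.2 in WT, with 0 of 8 positive in log2 difference and none listed at 0 in any library. Their part in the Tgfbr3 values was not tested. Without that library the Tgfbr3 difference was -0.00993. Pip4k2b stood at 31.0, 35.1 and 35.5 FPKM in 5xFAD, against 28.7, 37.2 and 36.1 in WT (log2 difference 0.00, SE 0.12). Scyl3 stood at 7.85, 6.49 and 6.89 FPKM in 5xFAD, against 7.21, 7.27 and 6.94 in WT (log2 difference -0.01, SE 0.10).

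Without the library labelled 5xFAD replicate 3, the host differences stayed small. They ran from -0.21 (Creb1, SE 0.28, 95% interval -0.87 to 0.46) to 0.08 (Hunk, SE 0.15, 95% interval -0.28 to 0.43) on the log2(FPKM + 1) scale. The 95% interval in that fit was -0.28 to 0.36 for Cdkal1, -0.23 to 0.29 for Uap1 and -0.30 to 0.30 for Dbnl. A p above the threshold does not show that the levels are equal.

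**Figure D5:**
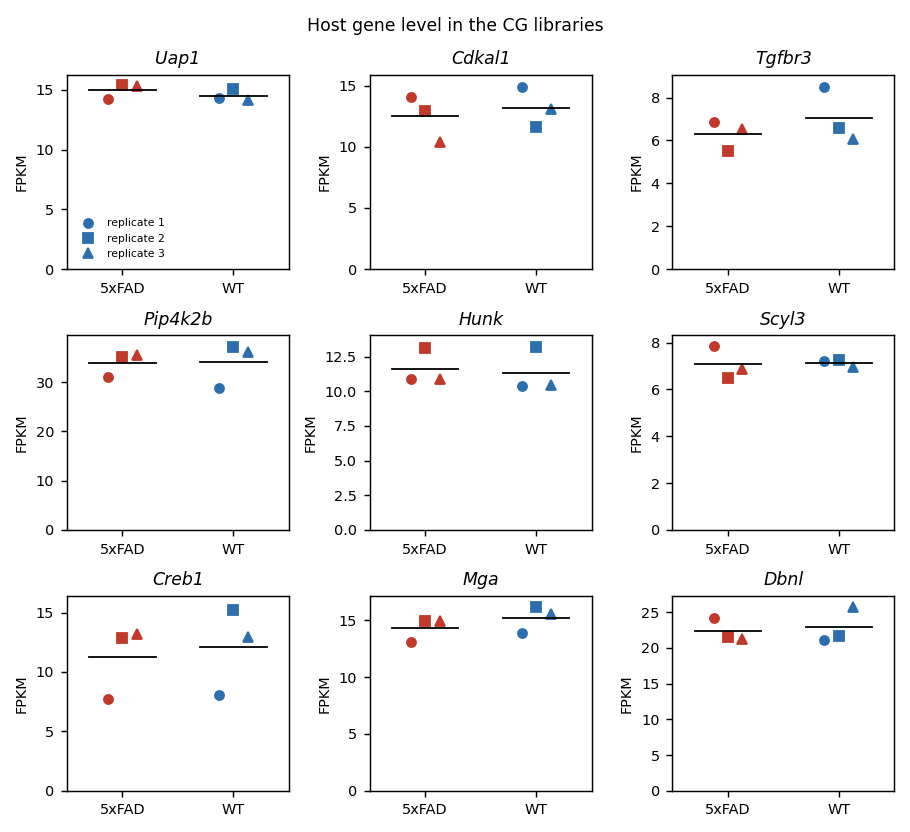
Level of each host gene in FPKM (fragments scaled by gene length and library size) in the CG libraries, 5xFAD left of WT; points are single libraries, marker shapes are replicate numbers, and lines are group means (n = 3). The genotypes overlap for each of the 9 genes, and replicate 1 is the lowest Creb1 and Pip4k2b library of each genotype.

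The hosts are ordered here among themselves by mean FPKM, which was not set against the level of other genes. Pip4k2b was the highest with a mean of 33.9 FPKM over the 6 libraries, followed by Dbnl at 22.6, and the libraries of these genes did not overlap with each other or with the next host. Mga (14.8), Uap1 (14.7), Cdkal1 (12.8), Creb1 (11.7) and Hunk (11.5) overlapped from one to the next in FPKM. Scyl3 (7.11) and Tgfbr3 (6.66) overlapped with each other, and Scyl3 lay below every library of Hunk. The signal of the near-absent junctions did not follow this order. Pip4k2b, the highest gene, had a near-absent junction of 3.36 in WT, and Uap1, a middle one, had one of 6.45 in 5xFAD. For all listed signal this pair did not differ from the gene order: the other Pip4k2b junction had means of 22.1 in 5xFAD and 33.2 in WT, and Uap1 had no other.

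Neuronal RNA was present in every library: the 8 hippocampal neuron markers summed to between 1765 and 1928 FPKM in 5xFAD, against between 1862 and 1999 in WT, and none was listed at 0. The list holds general neuron genes such as Snap25 and Syt1, so the sum does not check the brain region. Genes that work beside the hosts were listed by pathway and tested in the same CG fits. Over the 6 libraries 0 of the 102 genes tested in these 9 lists were called by limma, with 4 at an unadjusted p under 0.05, and without the library labelled 5xFAD replicate 3 it called 3, with 7 at an unadjusted p under 0.05. Over all genes tested, 424 of 14500 had an unadjusted p under 0.05 in the 6 libraries and 858 of 14527 in the 5, where 1.2% were called. The CREB family and its coactivators and kinases had 0 of 10 called without the library labelled 5xFAD replicate 3, with a median log2 difference of -0.04, beside -0.02 over all genes tested. The hexosamine list around Uap1 had 0 of 8 called (median -0.05), the phosphoinositide list around Pip4k2b 0 of 10 (median -0.06) and the MAX network around Mga 0 of 17 (median -0.02). The tRNA modification list around Cdkal1 had 0 of 7 called (median -0.00272), the SNF1-related and SCY1-like kinases around Hunk and Scyl3 0 of 12 (median -0.06) and the list of circular RNA biogenesis and decay factors 0 of 14 (median 0.01).

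Calls in that fit fell in the lists around Tgfbr3 and Dbnl. Of 14 TGF-beta and BMP genes, 2 rose, with a median of 0.03 over the list. Tgfbr2, the ligand-binding type II receptor, rose by 1.19 (SE 0.12, limma adjusted p = 0.00493), and Tgfb1, a ligand, rose by 1.12 (SE 0.16, limma adjusted p = 0.0237). Tgfbr1, the signalling type I receptor, differed by 0.68 (SE 0.19) and did not pass. Tgfbr3, the co-receptor, differed by -0.16 (SE 0.17). Of 10 partners of Dbnl, 1 rose: Hcls1, a cortactin relative of blood and immune cells, by 1.39 (SE 0.14, limma adjusted p = 0.00355), with a list median of -0.02. The 8 microglia markers moved with these genes. Their summed level was 531, 477 and 98.4 FPKM in 5xFAD, against 92.0, 101.1 and 110 in WT, 7 of 8 rose without the library labelled 5xFAD replicate 3, and none was listed at 0. The part of microglia in the differences of Tgfbr2, Tgfb1 and Hcls1 was not tested. All 3 calls were absent when that library was kept. They were also lost without 5xFAD replicate 1 (limma adjusted p = 0.0684 for Tgfbr2, 0.276 for Tgfb1 and 0.0655 for Hcls1) and without 5xFAD replicate 2 (0.0868, 0.11 and 0.0752), each of which leaves a single 5xFAD library that is assumed to vary like the WT libraries. Tgfb1 did not pass without WT replicate 3 either (0.103), and with no filter on low values neither Tgfb1 (0.232) nor Hcls1 (0.0569) passed.

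Circular output of the listed partners was also in the AT table. The phosphoinositide list had 24 junctions in 8 genes, with 1 near absent in WT, the Fig4 junction given above, and 5 past 2-fold higher and 1 past 2-fold lower in 5xFAD. Over all listed junctions 0.356% were near absent in either genotype, 7.89% were past 2-fold higher and 8.01% were past 2-fold lower in 5xFAD. The CREB list had 16 junctions in 7 genes, with 0 near absent, 1 past 2-fold higher and 1 past 2-fold lower in 5xFAD, and a median log2 difference of -0.19 in signal. The TGF-beta list had 9 junctions in 5 genes, with 0 near absent, 0 past 2-fold higher and 1 past 2-fold lower in 5xFAD, and a median of -0.26.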

How the data were processed

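The authors deposited a junction table of the AT libraries and a gene table of the CG libraries, whose FPKM values the authors computed with a quantifier not given in the sources used here. Per the submitters' processing notes the build was mm9 and the tool DESeq. The junction signal is deposited as reads scaled per library. Dividing a library's values by its smallest gave whole reads for 100% of them (tolerance 0.01), and these are the recovered reads. The deposited log2 ratio equals the log2 of the ratio of group means with 0.1 added. The deposited p-value and adjusted p-value are the authors' own. That the intervals are back-splice junctions was inferred from the form of the table and from the circular RNA methods in the labels' protocols and no source used here names their caller. Without a genome or annotation of that build, no sequence and no exon or intron status is given.

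From these, limma 3.58.1 (R 4.3.3) with a mean trend was fitted on log2(value + 1) over features whose mean reached 0.5, as a two-sided test with Benjamini-Hochberg adjustment and a threshold of 0.05. On this scale a fold change understates the change of low features. Counts were tested with edgeR 4.0.16 and DESeq2 1.42.0 on recovered reads. The fits were tested on simulated data. Members and lists were chosen with earlier results of these data known. Named are the 9 hosts, 5 similar junctions per direction (1 is not reported here), Thy1 and up to 4 genes per list. Oga was matched as Mgea5.

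Marker lists not described above gave, without the library labelled 5xFAD replicate 3, 2 of 6 astrocyte markers higher, 1 of 9 vessel and mesenchymal markers lower, and 0 of 8 choroid plexus, 0 of 6 oligodendrocyte and 0 of 8 neuron markers called by limma.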

Additional observations from a re-analysis of the deposited data

How the results depend on the processing

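Each near-absent junction kept its direction under every alternative run: 0.1 added in place of 1, recovered reads scaled to the library total, and each AT library left out. The listing limit and the choice of these junctions fixed that outcome in advance, so it does not measure robustness. With 0.1 added the 9 log2 differences ran from -5.11 to 5.92, and the count past 2-fold stayed at 9. The count near absent was 8 with a lower mean of at most 5% of the higher, 9 with a lower mean under 0.5 and 9 without any 1 library, but 5 when 0 reads were required. Leaving out a library can only lower a sum of reads, so the count without any 1 library could not fall. Of the 15 other junctions, 3 passed 2-fold, 6 with 0.1 added and 2 to 5 with 1 library left out (5 without WT replicate 1).

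No host gene passed limma under any of 11 alternatives (99 values, smallest limma adjusted p = 0.897). In 14 of these values the sign changed, each time with 1 library left out and so fewer samples. With 1 library left out the log2 difference ran from -0.162 to 0.0399 for Cdkal1, from -0.329 to 0.145 for Creb1, from -0.111 to 0.0699 for Pip4k2b, from -0.0495 to 0.140 for Hunk, from -0.0825 to 0.0377 for Scyl3 and from -0.0874 to 0.0533 for Dbnl. Uap1, Tgfbr3 and Mga kept their sign in all 11. Over the settings of the fit without the library labelled 5xFAD replicate 3, Tgfbr3 and Mga kept theirs. Uap1 did not, running from -0.0225 to 0.0866, and Creb1 ran from -0.541 to 0.126. Some of these settings leave a single 5xFAD library. Over all genes limma called 1, which became 9 with no filter and 1 to 174 with 1 library left out, 174 without the library labelled 5xFAD replicate 3. Those 174 became 97 with no filter and 35 to 174 with a further library left out (35 without 5xFAD replicate 1, 52 without 5xFAD replicate 2, 106 without WT replicate 2 and 84 without WT replicate 3). The cause of the change with no filter was not tested. DESeq2 called 1 of 7025 junctions, and limma called 0 under each alternative.

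The replicate number as a block gave 1 called gene over 6 CG libraries, 201 over 5 and 0 junctions. Same-numbered CG samples deviated together with correlations of 0.415, 0.279 and 0.0398. The values for replicates 1 and 2 were above those of every other CG pair, while 5xFAD replicate 3 correlated best with WT replicate 2 (0.147). The numbers were not taken as pairs in the main fits, and whether they mark pairs was not tested. In AT the correlations were 0.0676, 0.0884 and 0.0401. The 5xFAD replicate 1 library, with the fewest reads, limits what a value of 0 shows there.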
